A study of Mus musculus with 6 samples.

Results

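Trp53inp1 and 7 other genes of the p53 pathway were followed in Melan-a cells after transfection with siDicer or siScr. Melan-a is an immortal line of pigmented melanocytes from a female C57BL/6 mouse, so every sample comes from 1 line. siDicer is an siRNA against Dicer, the enzyme from which mature microRNAs are released by cutting of their hairpin precursors, and siScr is a control siRNA. There were 3 siDicer and 3 siScr samples, 1 pair each at passages 47, 54 and 56, all grown with 200 nM of the phorbol ester TPA and labelled as collected 48 h after transfection. The treatment protocol instead describes lysis 24 h after a medium change that followed 6 h of transfection. Total RNA was read on Clariom D mouse arrays, and each value is a log2 signal of 1 transcript cluster, the array's set of probes for a transcribed locus.

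The members were taken by symbol from the deposited value table, as clusters paired with a single gene symbol: Trp53inp1, Trp53inp2, Phlda3, Btg2, Zmat3, Plk3, Mdm4 and Ddb2. All 8 were found, among 7486 named genes of chromosomes 1 to 4, each with 1 cluster, and all 8 lay above the level under which genes were left out as dim (log2 4.16). The tested set held 5240 genes. The members were chosen by their siDicer minus siScr differences, with Trp53inp1 selected on one of the largest falls in these data and the others set beside it, so their differences between siRNAs are given as a description. Dicer1 and Trp53, on other chromosomes, were not analysed here, so neither the knockdown nor the p53 transcript itself could be checked. The melanocyte markers Tyrp1, Slc24a5, Pax3 and Mlph had log2 signals averaging 10.75 to 11.14 in siDicer and 10.84 to 11.28 in siScr cells, while 2 of 3 leukocyte markers, Ptprc and Cd2, lay below the dim level and Cd53 above it at 4.21 to 4.57 in siDicer and 4.32 to 4.73 in siScr cells. The fibroblast markers Col3a1 and Col5a2 and 2 of 3 keratinocyte markers, Flg and Lor, were above it as well, averaging 5.64 to 5.95 in siDicer and 5.67 to 5.99 in siScr cells for the fibroblast pair, and 6.22 to 6.29 in siDicer and 6.14 to 6.37 in siScr cells for the keratinocyte pair.

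The transcription factor p53 is stabilised by DNA damage and other stress, and it switches on genes that halt the cell cycle, repair DNA or start cell death. In skin it also takes part in the tanning response to ultraviolet light. Trp53inp1 encodes a stress protein that is induced by p53, feeds back on p53 activity in the nucleus and binds autophagy proteins of the LC3 family in the cytoplasm. In human cells its mRNA is a known target of several microRNAs, which are products of Dicer.

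The microRNAs shown are those known from human cells to repress TP53INP1 (miR-17-5p, miR-93-5p, miR-130b-3p and miR-155-5p) or BTG2 (miR-21-5p), in their mouse mature forms from RefSeq (GRCm38.p6), 5′ to 3′, with the seed, bases 2 to 8, in capitals. They are shown as the Dicer products that background knowledge ties to 2 of the members, and no target site in the mouse transcripts was examined.
mmu-miR-17-5p: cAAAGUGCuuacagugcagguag
mmu-miR-93-5p: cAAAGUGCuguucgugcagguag
mmu-miR-130b-3p: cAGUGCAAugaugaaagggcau
mmu-miR-155-5p: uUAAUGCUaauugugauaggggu
mmu-miR-21a-5p: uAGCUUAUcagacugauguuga
miR-17-5p and miR-93-5p share 1 seed, and the other three each have their own. Their genes lie on chromosomes 14, 5, 16, 16 and 11 in the order shown, and their levels were not analysed here.

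Trp53inp1 was lower in siDicer cells at every passage. Its log2 signal (cluster TC0400000084.mm.1, chromosome 4) was 6.92, 6.74 and 7.02 at passages 47, 54 and 56 in siDicer cells, against 8.09, 7.60 and 7.91 in siScr cells. All 3 siDicer arrays lay below all 3 siScr arrays, with a gap of 0.58 between the highest siDicer and the lowest siScr array. The means were 6.89 ± 0.14 in siDicer and 7.87 ± 0.25 in siScr cells (SD, n = 3 each), a log2 difference of -0.98 with a standard error of 0.13 from the limma fit, or 1.97-fold lower. Within passages 47, 54 and 56 the difference was -1.18, -0.86 and -0.89. The siScr arrays themselves spanned 0.49 and the siDicer arrays 0.28, with passage 54 the lowest in both groups.

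**Figure D1:**
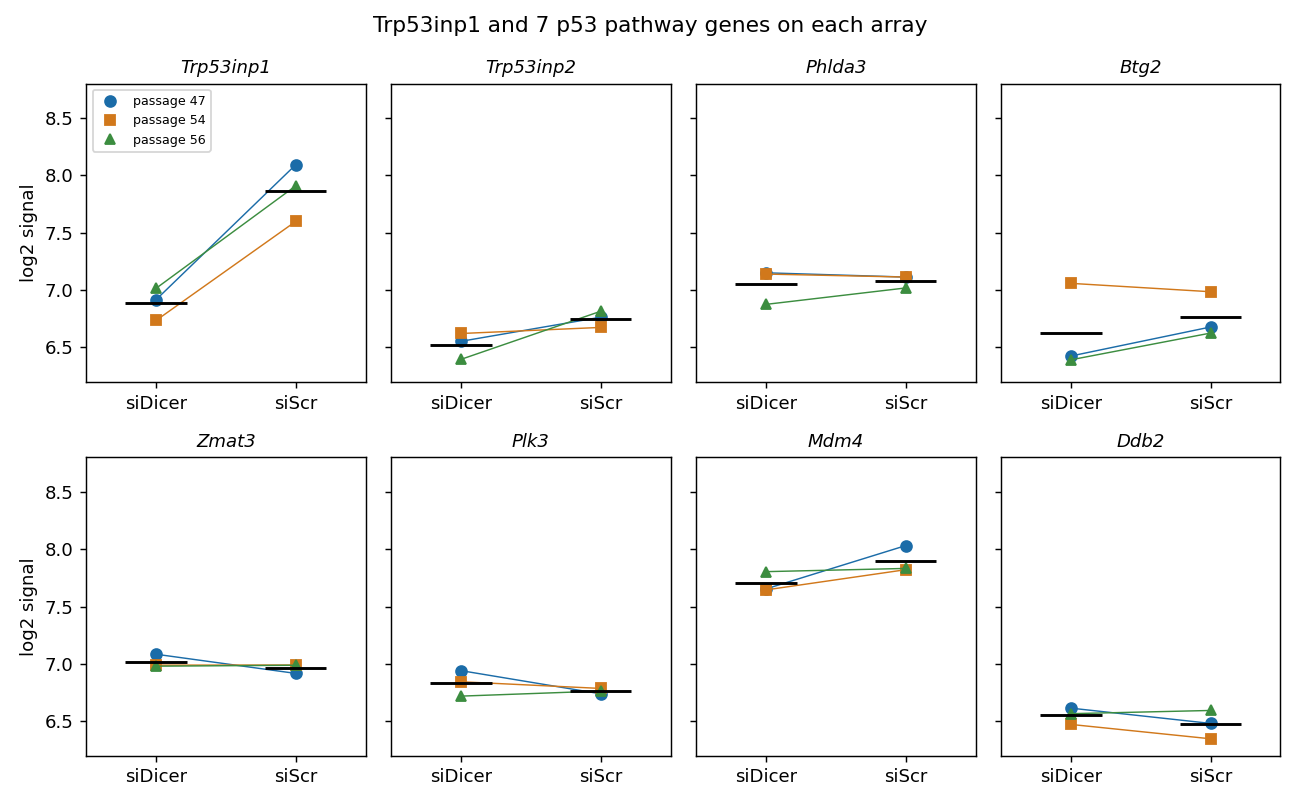
Log2 signal (vertical axis, the same in every panel) of the 8 genes on each array, siDicer on the left and siScr on the right of each panel. Points are single arrays, lines join the 2 arrays of 1 passage and black bars are group means; Trp53inp1 has means of 6.89 in siDicer and 7.87 in siScr cells, while the means of each other gene lie within 0.23 of each other.

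Trp53inp2, the paralogue of Trp53inp1, encodes a protein that shuttles from the nucleus to autophagosomes and is not known mainly as a p53 target. Its log2 signal was 6.55, 6.62 and 6.40 in siDicer cells, against 6.76, 6.68 and 6.82 in siScr cells, at passages 47, 54 and 56. The siDicer arrays again lay below the siScr arrays, but with a gap of only 0.053. The mean difference was -0.23 ± 0.079 (SE), and by passage it was -0.21, -0.053 and -0.42. Passage 56 thus held the largest difference of Trp53inp2 and passage 47 that of Trp53inp1.

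Mdm4 encodes the partner of Mdm2 that holds p53 inactive. Its log2 signal was 7.65, 7.64 and 7.80 in siDicer cells, against 8.03, 7.82 and 7.83 in siScr cells. The groups did not overlap, by a margin of 0.017, and the difference of -0.19 ± 0.084 (SE) was spread unevenly over the passages, at -0.38, -0.18 and -0.028. It shrank to -0.13 without siScr replicate 1, the passage 47 control.

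Across the siDicer and siScr groups, 3 of the 8 members (Trp53inp1, Trp53inp2 and Mdm4) were lower without overlap, where this held for 7.88% of all tested genes. None was higher without overlap, against 6.77% of tested genes. In the fit with passage as a block, 1 of 8 members, Trp53inp1, passed an adjusted p of 0.05 as lower, against 0.668% of tested genes (35 genes). As higher, 0 of 8 passed there, against 1.2% of tested genes. Without the block none passed, against 0.0191% of tested genes as lower (1 gene) and 0 genes as higher. These counts come from the contrast that chose the members and are given for description.

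Btg2, an antiproliferative protein that joins the mRNA deadenylation machinery, had log2 signals of 6.43, 7.06 and 6.39 in siDicer cells, against 6.68, 6.99 and 6.63 in siScr cells. Both groups were high at passage 54, the groups overlapped, and the difference between siRNAs was -0.14 ± 0.18 (SE). It was -0.25, 0.073 and -0.23 at passages 47, 54 and 56, with a sign at passage 54 opposite to the others. Without siDicer replicate 2, the passage 54 array, it was -0.35, and without siDicer replicate 3 it was -0.021.

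Phlda3, a small pleckstrin-homology protein that holds back the kinase Akt, had 7.15, 7.14 and 6.88 in siDicer cells, against 7.11, 7.11 and 7.02 in siScr cells. The siDicer array at passage 56 was the low one, and the groups overlapped. The difference was -0.027 ± 0.088 (SE), and it turned to 0.063 without siDicer replicate 3, the passage 56 array. Zmat3, a zinc-finger protein that binds RNA and influences splicing and mRNA stability, had 7.08, 6.99 and 6.98 in siDicer cells, against 6.92, 6.99 and 6.99 in siScr cells. At passages 54 and 56 the siDicer and siScr signals of Zmat3 differed by less than 0.01 (-0.0015 and -0.0076), and the mean difference was 0.053 ± 0.064 (SE).

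Plk3, a polo-like kinase of the stress response that can phosphorylate p53, had 6.94, 6.84 and 6.72 in siDicer cells, against 6.74, 6.79 and 6.76 in siScr cells. Its difference was 0.072 ± 0.073 (SE), positive at passages 47 and 54 (0.20 and 0.058) and negative at passage 56 (-0.044). Ddb2, which recognises ultraviolet damage for nucleotide excision repair and is a p53 target in human cells, had 6.61, 6.47 and 6.57 in siDicer cells, against 6.48, 6.35 and 6.59 in siScr cells. Its difference was 0.077 ± 0.081 (SE), and its groups overlapped, as did those of Plk3 and Zmat3. For Btg2, Phlda3, Zmat3, Plk3 and Ddb2 the difference between siRNAs was no larger than its standard error in the fit without passage. With passage as a block the standard error was 0.079 for Btg2, 0.068 for Plk3 and 0.063 for Ddb2, each smaller than the difference, while those of Phlda3 and Zmat3 (0.065 each) were not. That a difference is close to its error does not show that the levels were equal.

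The contrast of Trp53inp1 with the other members had the same direction at each passage and was largest at passage 47. The median difference of the other 7 was -0.027 over all arrays, and 0.038, 0.025 and -0.044 at passages 47, 54 and 56. The Trp53inp1 difference minus that median was -1.22, -0.89 and -0.85 at the 3 passages, on average -0.98 ± 0.20 (SD, n = 3 passages). In all 21 of 21 pairings of another member with a passage, the Trp53inp1 difference was the lower one. Trp53inp1 was chosen on its fall in these same arrays, and the 21 pairings rest on 3 passages. The count is therefore a description only. The nearest member was Mdm4 at passages 47 and 54 and Trp53inp2 at passage 56, where Trp53inp1 still lay lower by 0.47. By size, 0.0573% of tested genes had a larger difference than Trp53inp1, 6.81% a larger one than Trp53inp2, 9.62% than Mdm4 and 76.9% than Phlda3.

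**Figure D2:**
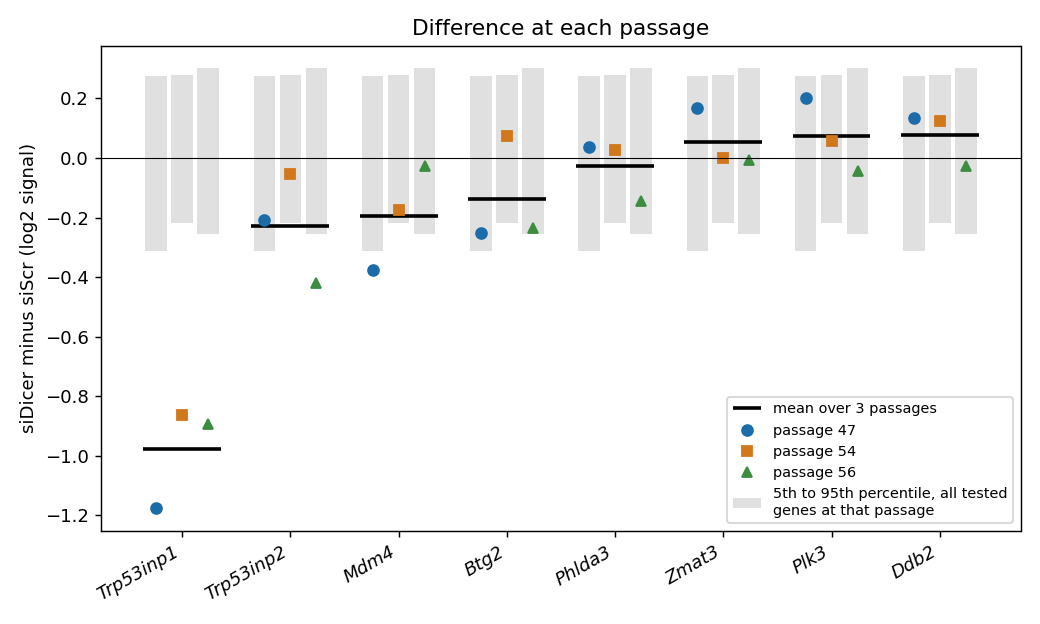
siDicer minus siScr difference in log2 signal (vertical axis) for the 8 genes, ordered from lowest to highest mean. Points are the 3 passages, black bars their means and the grey bar behind each point runs from the 5th to the 95th percentile of all tested genes at that passage (-0.31 to 0.28, -0.22 to 0.28 and -0.25 to 0.30 at passages 47, 54 and 56); all 3 Trp53inp1 points lie below -0.8, and the lowest point of another gene is Trp53inp2 at passage 56 (-0.42).

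Other genes of the p53 pathway were read from lists of known targets and regulators. Only genes of chromosomes 1 to 4 could be read, so p53 targets on other chromosomes are missing. The target list is therefore not a survey of the p53 response. Of 24 listed p53 targets, 23 were in the table and 22 were tested, 9 higher and 13 lower in siDicer cells, with a median difference of -0.017 against -0.0086 over all tested genes. None passed in either direction (limma, 0 of 22), where 1 of all 5240 tested genes did. A count of 0 in a list this short was thus nearly fixed in advance. At an unadjusted p under 0.05 there was 1 of 22 (8.61% of all tested genes). With passage as a block none passed, against 1.2% of tested genes as higher and 0.668% as lower. There 3 of 22 had an unadjusted p under 0.05 (13.9% of all tested genes). In 15 of the 22 the difference was under 0.1 in size, as it was in 3525 of all 5240 tested genes.

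Sesn2, a sestrin that restrains mTORC1 and answers p53 and amino acid stress, had the largest difference of these targets. Its log2 signal was 7.22, 7.26 and 7.21 in siDicer cells, against 8.09, 7.42 and 7.48 in siScr cells, so that the passage 47 control stood apart from the other five arrays. The groups did not overlap. Without overlap, 2 of 22 targets were lower, against 7.88% of all tested genes, and 0 were higher, against 6.77%. The Sesn2 difference was -0.43 ± 0.16 (SE, limma, adjusted p = 0.502, and 0.183 with the block). By passage it was -0.87, -0.16 and -0.26. Trp53i11, a p53-induced gene, differed by 0.21, the replication clamp Pcna by 0.20 and the repair nuclease Ercc5 by -0.083 (limma, adjusted p = 0.740, 0.748 and 0.756). With passage as a block, which takes up the spread between passages, the adjusted p was 0.20, 0.24 and 0.59 in the same order (limma). Trp53i11 and Pcna were higher in siDicer cells at each of the 3 passages, though their groups overlapped.

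Of 16 listed regulators of p53, 13 were tested, 7 higher and 6 lower, with a median of 0.012. None passed with limma without the block, where 1 of all 5240 tested genes did. None passed with passage as a block either, against 1.2% of tested genes as higher and 0.668% as lower. In a list this short a count of 0 was again nearly fixed in advance. In each fit 1 of 13 had an unadjusted p under 0.05, against 8.61% of all tested genes without and 13.9% with the block. Setd7, a lysine methyltransferase that can modify p53, averaged a log2 signal of 8.07 ± 0.17 in siDicer and 7.82 ± 0.088 in siScr cells (SD, n = 3 each), with passage differences of 0.25, 0.35 and 0.17. Its groups did not overlap, and the mean difference was 0.26 ± 0.097 (SE, limma, adjusted p = 0.495, and 0.120 with the block). Topors, a ubiquitin and SUMO ligase, also showed no overlap, at 0.13 (limma, adjusted p = 0.632, and 0.421 with the block). Thus 2 of 13 regulators were higher without overlap, against 6.77% of all tested genes, and 0 were lower, against 7.88%. The kinase Abl1 differed by 0.084 and Cop1, a ubiquitin ligase for p53, by -0.080 (limma, adjusted p = 0.818 and 0.850, and 0.626 and 0.727 with the block). Cdkn2a, whose Arf product blocks Mdm2, differed by 0.015.

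Both TP53INP proteins act in autophagy, and 12 of 35 listed autophagy genes were tested, 6 higher and 6 lower, with a median of -0.019. None passed with limma without the block, where 1 of all 5240 tested genes did. With the block none passed either, against 1.2% of tested genes as higher and 0.668% as lower. For so few genes a count of 0 was nearly fixed in advance here too. At an unadjusted p under 0.05 there were 1 and 3 of 12 without and with the block, against 8.61% and 13.9% of all tested genes. Atg16l1, which directs lipidation of LC3 proteins, was at 0.16 ± 0.066 (SE, limma, adjusted p = 0.570, and 0.301 with the block). Rb1cc1, the scaffold of the Ulk1 complex, was at -0.20 ± 0.088, with passage values of -0.45, -0.11 and -0.026. Without overlap, 1 of 12 was higher (Atg16l1) and 1 lower (Rb1cc1), against 6.77% and 7.88% of all tested genes. The protease Atg4c differed by -0.19 and the membrane protein Atg9a by 0.20 (limma, adjusted p = 0.659 and 0.710, and 0.275 and 0.299 with the block). Map1lc3a, an LC3 protein, differed by -0.058.

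**Figure D3:**
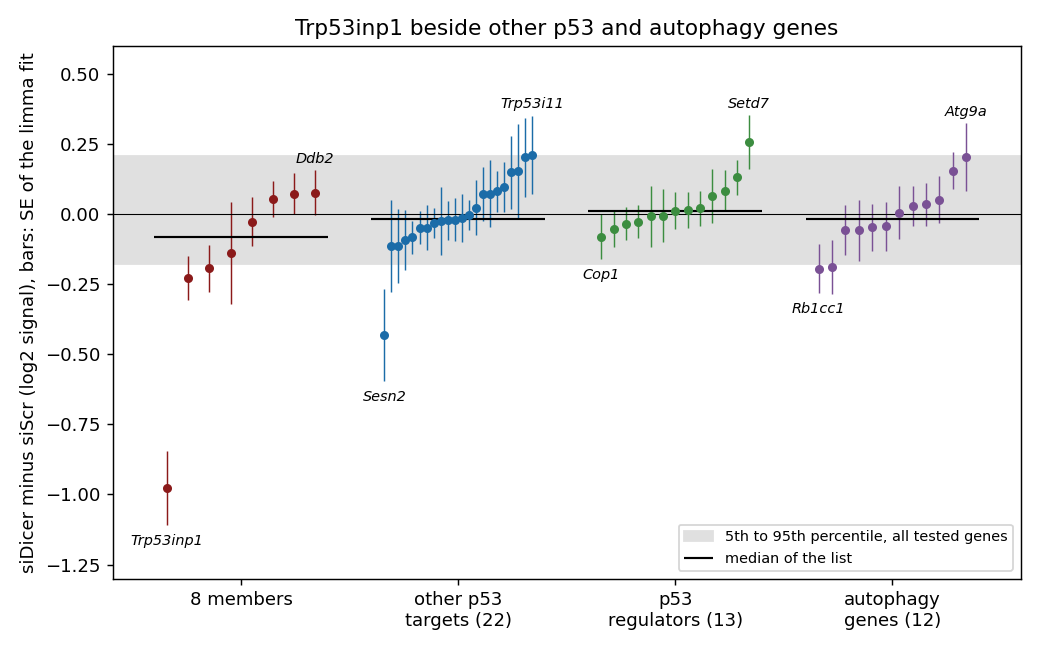
siDicer minus siScr difference in log2 signal (vertical axis) for the 8 members and the 3 lists, 1 point per tested gene, sorted within its list, with the standard error of the limma fit as bars. Black lines are list medians, the grey band is the 5th to 95th percentile of all tested genes (-0.18 to 0.21), and the lowest gene of the 3 lists is Sesn2 at -0.43, against -0.98 for Trp53inp1.

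Over the 6 arrays, the protein-coding genes whose signal followed that of Trp53inp1 most closely, of 3482 tested, were Ugcg, Pcmtd2, Pip4k2a, Vcpip1 and Pcmtd1, with Pearson correlations of 0.996, 0.992, 0.992, 0.991 and 0.987. These arrays share the siRNA groups and passages, so the values describe a common profile. The differences of these genes ran from -0.61 (Ugcg, the glucosylceramide synthase) to -0.25 (Vcpip1, a deubiquitinase), each smaller than that of Trp53inp1. Ugcg had 7.92, 7.75 and 8.02 in siDicer cells, against 8.65, 8.31 and 8.55 in siScr cells, and was, like Trp53inp1, lowest at passage 54 in both groups. Among the members, Mdm4 correlated with Trp53inp1 at 0.88 and Trp53inp2 at 0.77, while Phlda3 and Btg2 were near 0 (0.0071 and 0.020), Ddb2 was at -0.20 and Plk3 and Zmat3 were at -0.56 and -0.61.

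The variation between passages was not used to choose the members and was tested. Each passage is 1 siDicer and 1 siScr array, which the test takes as its replicates. Passage therefore cannot be told apart from anything else that differed between these pairs of arrays. Averaged over the siDicer and siScr array of each passage, Btg2 was at 6.55, 7.02 and 6.51 at passages 47, 54 and 56, and it varied more between passages than between siRNAs. The limma F test of passage, with siRNA in the model, gave F = 17.3 and an adjusted p of 0.0591 for Btg2, just short of the threshold. Of the 8 members 0 passed this test, where 1.97% of tested genes did. At an unadjusted p under 0.05 there were 2 of 8 members, Btg2 and Trp53inp1, against 16.3% of tested genes. Trp53inp1 lay 0.21 below its mean at passage 54 (F = 7.38, limma, adjusted p = 0.190), the passage where Btg2 lay 0.33 above its own. Trp53inp2 and Zmat3 varied least, with F values of 0.16 and 0.024.

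Some marker genes also differed between the passages, with the same limit of 1 pair of arrays at each. The mean log2 signal of the 4 melanocyte markers was 10.75 in siDicer and 10.84 in siScr cells at passage 54, against 11.03 to 11.28 on the other four arrays, and 2 of 4, Slc24a5 and Mlph, passed the passage test (limma, adjusted p = 0.0231 and 0.0344). Each was lower at passage 54, by 0.51 and 0.53 than the mean of the others. The test covers any passage difference, and Slc24a5 stood 0.33 above its mean at passage 47 and 0.34 below at passage 54. The fibroblast marker Col3a1 was higher there by 0.43 (adjusted p = 0.0330), and Col5a2 did not pass (adjusted p = 0.411). The leukocyte marker Cd53 passed as well (adjusted p = 0.0441), with passage 47 apart at 4.27 against 4.65 and 4.64 at passages 54 and 56. The keratinocyte markers Flg and Lor did not pass (limma F test, adjusted p = 0.415 and 0.797). The part of these shifts in the Btg2 and Trp53inp1 levels was not tested.

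**Figure D4:**
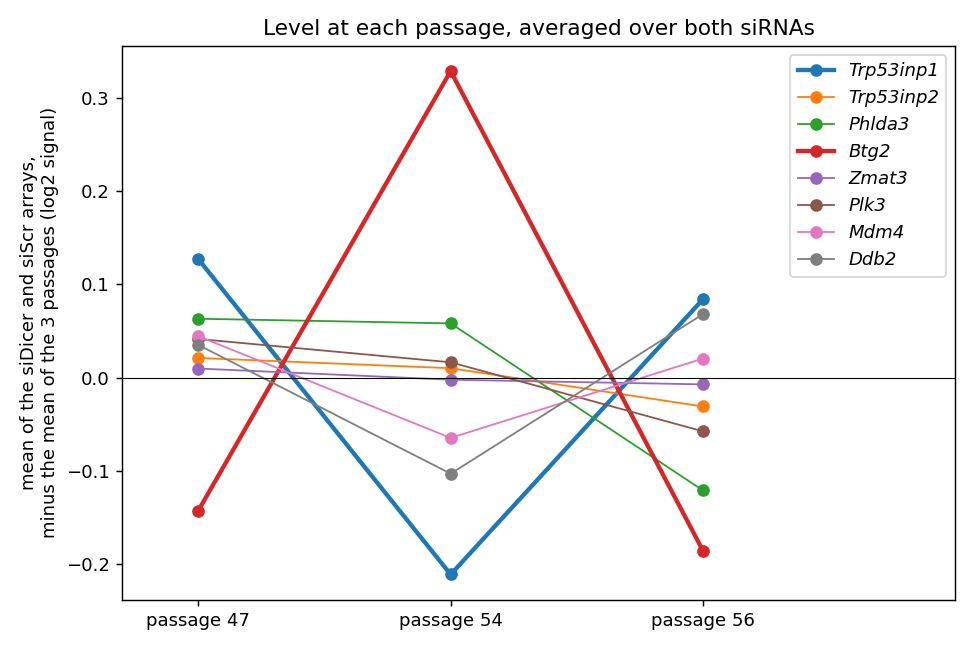
Mean of the siDicer and siScr arrays at each passage minus the gene's mean over the 3 passages (vertical axis, log2 signal), 1 line per gene. Btg2 stands 0.33 above its mean at passage 54 and Trp53inp1 0.21 below, while the other six genes stay between -0.12 and 0.07.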

How the data were processed

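The authors deposited log2 signals per transcript cluster for 6 Clariom D arrays, already on a common scale (array medians 4.63 to 4.68). Per the submitters' processing notes they used Affymetrix Expression Console. Its version, the summarisation, normalisation, centring and genome build were not given in the sources used here. Coordinates of clusters are therefore left out. The log2 scale was inferred from the range of the values (1.70 to 13.70). Of 16383 clusters, 7530 had 1 gene symbol, 455 several and 8398 none, and only the first were named, with symbols updated through RefSeq (230 changed). Where a gene had several clusters (43 genes) the highest mean was used, and genes below the 30th percentile of mean signal were left out.

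The siRNA groups were tested in R 4.3.3 with limma 3.58.1 (eBayes with a trend, two-sided, Benjamini-Hochberg adjustment over all 5240 tested genes, threshold 0.05). The fit was also run on simulated data with independent noise on each array and added siRNA and passage effects. That run does not show how reliable the calls are in these data. An exact permutation test of 3 against 3 arrays cannot go below p = 0.1. Per the labels, each replicate number stands for 1 passage in either group, so the numbers pair the samples. Deviations from the group means correlated at 0.42, 0.63 and 0.075 at passages 47, 54 and 56. The samples are biological replicates, per the series' design text. Members and lists were chosen with earlier results of these data known. Besides the members, every listed gene that passed, the 4 smallest p-values of each list and the 5 genes most correlated with Trp53inp1 were named. Cdkn2a, Map1lc3a and the marker genes were named after their values were seen. So were Ak1, Epha2, Ephx1, Fuca1 and Atf3 in the passage test of the p53 targets.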

Additional observations from a re-analysis of the deposited data

How the results depend on the processing

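Over quantile normalisation, median centring, array weights and each array left out, the Trp53inp1 difference lay between -1.11 without siScr replicate 2 and -0.86 without siScr replicate 1. Averaging the clusters of a gene and taking passage as a block leave a member's difference as it is by construction, since each member has 1 cluster and the passages are balanced. Its distance from the median of the other members ran from -1.10 without siDicer replicate 3 to -0.83 without siDicer replicate 2. Of the other members, Phlda3 changed sign without siDicer replicate 3 and the other six in none of these settings. The count of all tested genes that passed was 1 as deposited, 98 with passage as a replicate block (63 higher and 35 lower) and 14 with array weights, and it ran from 0 to 2 with 1 array left out, with 0 without siDicer replicate 3 and 2 without siScr replicate 2. The p53 target, p53 regulator and autophagy lists had 0 genes passing under every setting run, the block included. With so few of all tested genes passing, a count of 0 in lists this short was nearly fixed in advance in each setting. The count of members that passed the passage test was 0 as deposited, 1 after median centring, 1 with array weights and from 0 to 1 with 1 array left out, the gene being Btg2 each time. It was 1 without siDicer replicate 3 and without siScr replicate 3, where the adjusted p of Btg2 was 0.0341 and 0.0286, within a range up to 0.332 without siDicer replicate 2. The cause of these moves was not tested. The number of arrays limits the precision, and these values do not hold the signal over background.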

Other observations

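The passage test was also read for the listed p53 targets, a step chosen after the values were seen. Of 22 tested targets 12 had an unadjusted p under 0.05, or 54.5%, against 16.3% of all tested genes, and 0 passed after adjustment over all genes. They went both ways at passage 54, with 7 of the 12 above and 5 below the mean of passages 47 and 56. Ak1, an adenylate kinase, stood higher there by 0.43, Epha2, an ephrin receptor, by 0.30 and Trp53i11 by 0.27 (limma F test, adjusted p = 0.0870, 0.113 and 0.0770). Ephx1, a microsomal epoxide hydrolase, stood at -0.40 and the lysosomal fucosidase Fuca1 at -0.33 (adjusted p = 0.106 and 0.167). Pcna differed from the mean of the others by only 0.043 at passage 54, and its signal was lowest at passage 47 (8.99, 9.25 and 9.42 at passages 47, 54 and 56, limma F test, adjusted p = 0.0883). Trp53i11 was also lowest at passage 47 (6.48, 6.90 and 6.77) and the listed target Atf3 at passage 56 (6.93, 6.95 and 6.61). The F test covers any difference between passages, so its p-values are not for passage 54 alone. Of the 12 autophagy genes, 11 stood lower at passage 54 than the mean of the others, against 47.6% of all tested genes, a count also taken after the values were seen. Atg9a was the lowest at -0.26 (adjusted p = 0.236), 0 passed the limma F test, and 2 had an unadjusted p under 0.05.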
